A study of Mus musculus with 30 samples.

Results

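The genes described here are 8 markers of the CA2 and CA3 pyramidal cells of the mouse hippocampus, listed by name: Pcp4, Rgs14, Amigo2 and Map3k15 for CA2, and Bok, Iyd, Cpne4 and Grik4 for CA3. All 8 were found among the 49315 gene identifiers of the count table, and all 8 were among the 16486 genes that passed the filter on low counts and were tested. Bulk RNA-sequencing was performed on hippocampi of 30 C57BL/6J mice, 13 lacking tissue inhibitor of metalloproteinases-2 (TIMP2 KO, 7 females and 6 males) and 17 wildtype (WT, 7 females and 10 males). TIMP2 is a secreted protein that both inhibits matrix metalloproteinases and takes part in the activation of MMP2. The KO was present in the whole animal, from a Jackson Laboratory line, and neither group received a treatment in the labels. The study's methods name littermate controls, but the labels gave no age, litter or dissection date for the sequenced mice. Each mouse gave 1 library, and a mouse is named here by the number in its label.

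CA2 and CA3 are neighbouring fields of the pyramidal layer. CA3 pyramidal cells receive the mossy fibres of dentate granule cells, excite each other through recurrent collaterals and project to CA1 through the Schaffer collaterals. CA2 pyramidal cells lie between CA3 and CA1, resist the usual forms of long-term potentiation and are needed for social memory. Because a whole hippocampus was sequenced, a lower level of a CA2 or CA3 gene could reflect fewer cells of that type or less RNA per cell, and these cannot be told apart.

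Library totals ran from 18345517 to 41081083 counts among the KO and from 19445246 to 32098386 among the WT animals. Timp2 itself, the check of the labels, stood at 158 ± 10.5 CPM (counts scaled to a common library size with TMM factors; SD, n = 13) in TIMP2 KO and 317 ± 39.8 (n = 17) in WT mice, and the highest KO mouse (171) lay below the lowest WT mouse (256). Mouse 18, a KO male, had the highest level of Rgs14, Amigo2, Map3k15, Bok and Iyd among all 30 mice. Mouse 6, a WT male, had the lowest Pcp4 level and the lowest share of counts on mitochondrial genes, 2.217%. Results that rest on either mouse are given with and without it.

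The genes lie on 7 chromosomes (GRCm38, GENCODE M21, whole gene spans, all protein coding). Of the CA2 genes, Pcp4 (chr16:96467606-96525793, plus strand) encodes a small protein that binds calmodulin. Rgs14 (chr13:55369732-55384687, plus) encodes a regulator of G protein signalling that limits potentiation in CA2. Amigo2 (chr15:97244125-97247287, minus) encodes a leucine-rich repeat adhesion molecule, and Map3k15 (chrX:159988433-160123351, plus) a kinase of the apoptosis signal-regulating kinase group. Of the CA3 genes, Bok (chr1:93685660-93695764, plus) encodes a member of the BCL2 family of cell death regulators. Iyd (chr10:3540240-3554877, plus) encodes the iodotyrosine deiodinase known from the thyroid. Cpne4 (chr9:104547286-105034544, plus) encodes a calcium-dependent membrane-binding copine, and Grik4 (chr9:42518135-42944493, minus) a kainate receptor subunit enriched in CA3.

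Some exonic bases are shared with other genes, and the strand setting of the counting was not given in the sources used here. Map3k15 shares 603 exonic bases with Pdha1 on the opposite strand, Pcp4 shares 243 with Igsf5 on the same strand, Grik4 shares 59 with Gm24420 and Amigo2 shares 58 with Pced1b. The counts of these 4 genes are therefore less certain, those of Map3k15 most of all, since it had only 24 to 76 counts per mouse.

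The 100 bases before the RefSeq start (GRCm38.p6) are shown for 4 genes that rose and fell with other members across the mice, Bok, Cpne4, Iyd and Amigo2, and for Pcp4, which did not. A RefSeq start can differ from the start of the GENCODE span given above. The Cpne4 window lies inside that gene's span, and the Iyd window runs past the start of its span. Capitals mark matches to 5 motifs, searched on both strands. The TATA box was spelled TATAAA and the GC box GGGCGG. The pentamer bound by nuclear factor Y was spelled CCAAT. The E-box was spelled CANNTG, and the core of the cyclic AMP response element TGACG. No matches overlap in the sequences shown.
Bok (chr1:93685475-93685574, plus strand): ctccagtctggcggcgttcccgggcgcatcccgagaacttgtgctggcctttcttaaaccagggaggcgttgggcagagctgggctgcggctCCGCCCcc
Cpne4 (chr9:104569555-104569654, plus strand): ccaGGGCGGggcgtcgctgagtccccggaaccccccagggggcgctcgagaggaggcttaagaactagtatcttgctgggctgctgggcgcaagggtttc
Iyd (chr10:3540174-3540273, plus strand): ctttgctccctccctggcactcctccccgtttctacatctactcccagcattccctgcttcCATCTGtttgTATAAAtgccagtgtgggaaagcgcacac
Amigo2 (chr15:97247288-97247387, minus strand): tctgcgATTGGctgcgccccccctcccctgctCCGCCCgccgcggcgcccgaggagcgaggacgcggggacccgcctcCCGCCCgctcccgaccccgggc
Pcp4 (chr16:96467506-96467605, plus strand): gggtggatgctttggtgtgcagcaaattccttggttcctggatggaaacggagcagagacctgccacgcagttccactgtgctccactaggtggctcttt

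Bok and Cpne4 each hold 1 GC box, found in 24.7% of the 32851 RefSeq windows of this length. Amigo2 holds 2 GC boxes and 1 CCAAT match (18.9% of windows) and is the richest in G and C at 83%. Iyd is the only one of the 5 with a TATAAA match (5.56% of windows), which lies beside an E-box (34.4%). Pcp4 holds none of the 5 motifs, and TGACG (10.5% of windows) is in none of the 5 sequences. The windows shown for the genes that varied together do not share a motif that sets them apart from Pcp4 as a group. The same table holds Grik4 and a second Cpne4 start, which are not printed, and Rgs14 and Map3k15 are named only.

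Levels were compared between genes only per length, as RPKM, the CPM divided by the exon length in kilobases, over all 30 mice. The order was Pcp4 (61.7 ± 5.59 RPKM, SD), Bok (46.4 ± 5.47), Rgs14 (27.6 ± 3.39), Cpne4 (25.4 ± 2.32), Grik4 (11.6 ± 0.985), Amigo2 (8.35 ± 1.25), Iyd (3.41 ± 0.654) and Map3k15 (0.341 ± 0.0927). Rgs14 and Cpne4 were the only neighbours in this order whose means lay within 1 SD of each other. Each set thus held genes of high and of low level, and the lowest CA2 gene, Map3k15, was also the lowest of all 8.

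Between mice, the members varied at least as much as a typical gene. The SD of log2 CPM was 0.12 for Grik4, 0.13 for Cpne4, 0.14 for Pcp4, 0.17 for Rgs14 and for Bok, 0.21 for Amigo2, 0.27 for Iyd and 0.37 for Map3k15, beside a median of 0.12 over the genes tested, whose 10th and 90th percentiles were 0.06 and 0.38. Counting error made up 36.7% of the variance of Map3k15 and 19.3% of that of Iyd, and between 2.17% and 7.59% for the other 6 genes. The 2 genes with the fewest reads were thus also the least precisely measured in 1 mouse.

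To ask whether loss of TIMP2 changed these genes, TIMP2 KO mice were compared with WT mice of both sexes with edgeR's quasi-likelihood test across all genes tested. None of the 8 genes passed the test. At an unadjusted p under 0.05, 0 of 8 were called, beside 5.03% of all genes tested, and 0 of 8 at a Benjamini-Hochberg adjusted p under 0.05, beside 0.0546%. DESeq2 and the fit with sex as a covariate also called 0 of 8. Of the 8 log2 fold changes 7 were above 0, as for 50.2% of all genes tested, with a median of 0.06 beside 0.00011 over all genes. The 95% intervals reached from -0.18 to 0.38 on the log2 scale over the 8 genes.

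Among the CA2 genes, Pcp4 ranged from 55.9 through a median of 62.6 to 71.5 CPM in TIMP2 KO and from 44.6 through 64.7 to 72.6 CPM in WT mice. The ranges overlapped. The low end of the WT range was mouse 6 alone, and without it the lowest WT mouse was at 60.7 CPM, with 5 KO mice below it. The log2 fold change was -0.04 (SE 0.046, unadjusted p = 0.443, edgeR; -0.06 without mouse 6). Rgs14 ranged from 104 through 114 to 163 CPM in TIMP2 KO and from 95.5 through 113 to 143 CPM in WT mice. Mouse 18 alone lay above the WT range, and the log2 fold change of 0.05 (SE 0.058, edgeR p = 0.423) was 0.00099 without it.

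Amigo2 ranged from 21.6 through 26.5 to 37.1 CPM in TIMP2 KO and from 18.6 through 24.5 to 32.9 CPM in WT mice. The groups overlapped over most of their range, with a log2 fold change of 0.09 (SE 0.071, edgeR p = 0.205; 0.05 without mouse 18). Map3k15 ranged from 0.988 through 1.45 to 2.3 CPM in TIMP2 KO and from 0.968 through 1.22 to 2.19 CPM in WT mice. Its interval was the widest of the 8, from -0.18 to 0.38 around a log2 fold change of 0.10 (edgeR p = 0.486; 0.03 without mouse 18).

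Among the CA3 genes, Bok ranged from 67.3 through 87.2 to 114 CPM in TIMP2 KO and from 62 through 85.1 to 95.3 CPM in WT mice. The medians were close and the upper end was set by KO males, with a log2 fold change of 0.08 (SE 0.056, edgeR p = 0.163; 0.04 without mouse 18). Iyd ranged from 4.13 through 5.6 to 8.09 CPM in TIMP2 KO and from 3.67 through 5.59 to 7.5 CPM in WT mice. Its medians were nearly equal, and the log2 fold change of 0.03 (SE 0.095, edgeR p = 0.764) changed sign without mouse 18, 20 or 24.

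Cpne4 ranged from 116 through 135 to 169 CPM in TIMP2 KO and from 118 through 137 to 152 CPM in WT mice, with the KO mice spread more widely on both sides. Its log2 fold change was 0.05 (SE 0.044, edgeR p = 0.29), and it was 0.03 without mouse 18 and 0.02 without mouse 27. Grik4 ranged from 62.6 through 69.1 to 81.7 CPM in TIMP2 KO and from 54 through 68.3 to 77.7 CPM in WT mice. It had the lowest p of the 8 in this comparison, 0.125, with a log2 fold change of 0.06 (SE 0.041, edgeR). The adjusted p was 0.998 for each of the 8 genes.

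**Figure D1:**
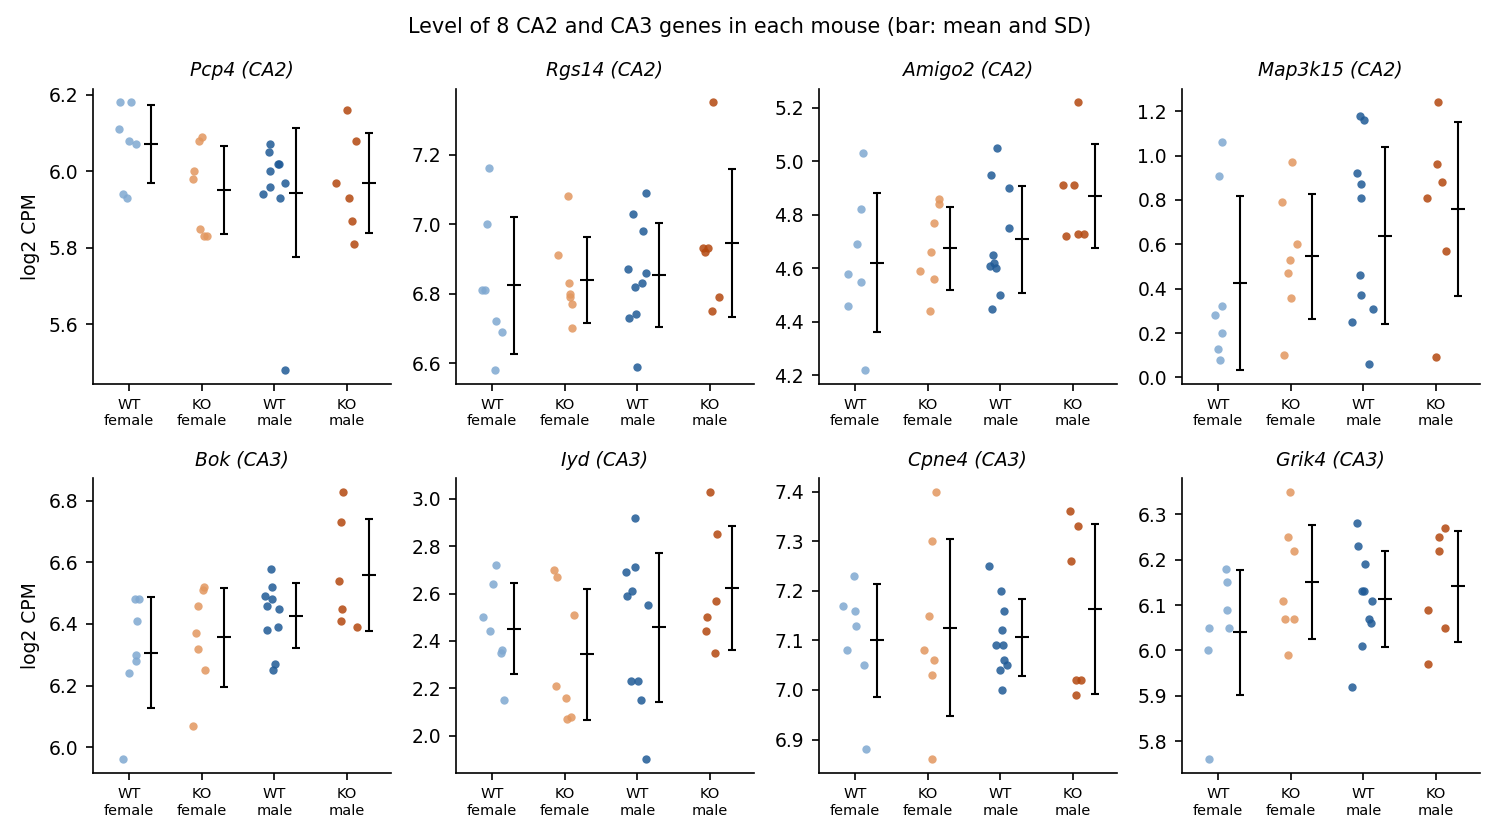
Level of each gene in each mouse as log2 CPM (vertical axis), by group of sex and genotype; each point is 1 mouse, and the bar beside it is the group's mean with its SD. The KO and WT points overlap for all 8 genes, mouse 18 is the top point of the KO males for Rgs14, at 7.35, and mouse 6 is the low WT male for Pcp4, at 5.48.

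Within 1 sex, 1 gene passed an unadjusted p under 0.05 in each case, and neither passed after adjustment. In females alone Pcp4 was lower in TIMP2 KO, at 62.1 ± 4.92 CPM (SD, n = 7) against 67.2 ± 4.73 CPM (n = 7), where 5.02% of all genes passed. The log2 fold change was -0.11 (SE 0.051, edgeR p = 0.0426, adjusted p = 0.978). In males alone Bok was higher in TIMP2 KO, at 94.8 ± 12.3 CPM (n = 6) against 86.1 ± 6.13 CPM (n = 10), where 3.25% passed. The log2 fold change was 0.14 (SE 0.061, edgeR p = 0.0322, adjusted p = 1). The Bok difference did not pass without mouse 18 (0.08, edgeR p = 0.149). Without mouse 6, Amigo2 passed as well as Bok in males (0.20, edgeR p = 0.0209, adjusted p = 1). In males the Pcp4 value was 0.02, and -0.02 without mouse 6.

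These values do not show that the response differed between the sexes. The interaction of sex and genotype passed an unadjusted p under 0.05 for 0 of the 8 genes, beside 2.57% of all genes, with the lowest p, 0.147, for Pcp4 (interaction -0.13 on the log2 scale, SE 0.09, edgeR). For Bok it was -0.09 (SE 0.10, edgeR p = 0.381) and for Iyd, whose values in females and males had opposite signs, -0.26 (SE 0.19, edgeR p = 0.169). DESeq2 also called 0 of 8.

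**Figure D2:**
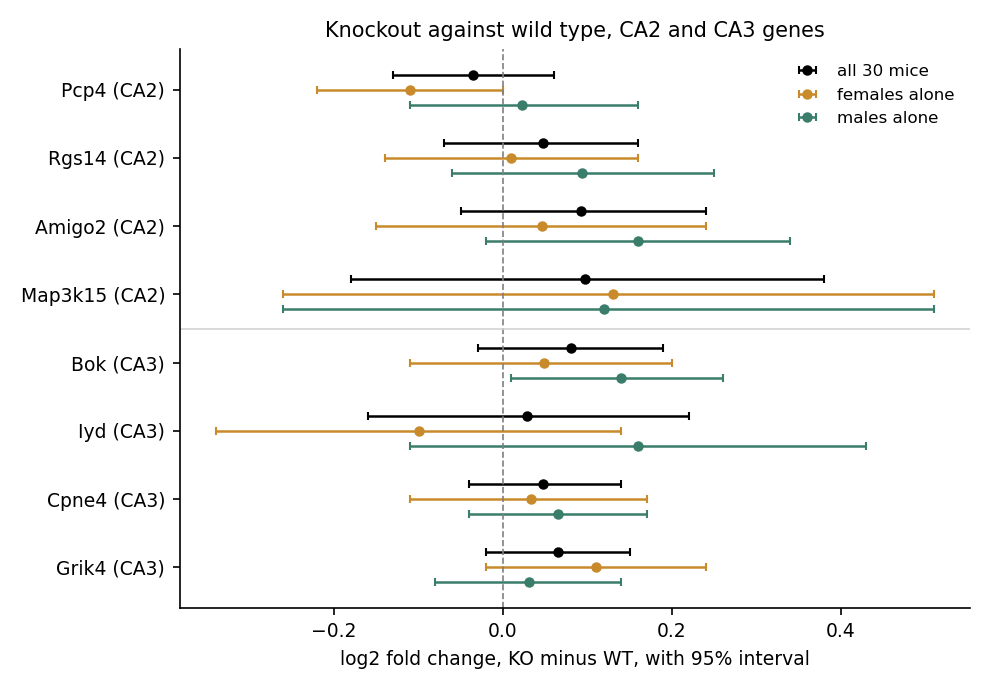
Log2 fold change of TIMP2 KO against WT mice (horizontal axis) with its 95% interval from edgeR for each gene, in all 30 mice, in females and in males. With all mice every interval crosses 0, and the intervals that do not are those of Pcp4 in females and Bok in males.

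Independently of genotype, 7 of the 8 genes had lower values in females than in males, as did 49.4% of all genes tested. With genotype as a covariate, Bok and Amigo2 passed an unadjusted p under 0.05, so 2 of 8 beside 9.77% of all genes, and 0 of 8 passed after adjustment, beside 0.218%. Bok was at 81 ± 8.91 CPM in 14 females and 89.4 ± 9.59 CPM in 16 males, a log2 fold change of -0.15 (SE 0.051, edgeR p = 0.00472, adjusted p = 0.26). The ranges overlapped, from 62 through 81.2 to 91.4 CPM in females and from 76 through 87.6 to 114 CPM in males. Bok passed whichever single mouse was left out, with values between -0.17 and -0.13, and at -0.12 (edgeR p = 0.019, adjusted p = 0.386) without mice 6 and 18.

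Amigo2 was at 25.2 ± 3.61 CPM in females and 27.4 ± 4.06 CPM in males, a log2 fold change of -0.14 (SE 0.068, edgeR p = 0.0483, adjusted p = 0.507). That value did not pass once any of 15 mice was left out (KO mice 3, 8, 11, 15, 18, 20 and 30, and WT mice 4, 6, 7, 16, 21, 23, 24 and 32), with a value of -0.10 without mouse 18. Map3k15, the X-linked member, had the value farthest from 0, -0.25 (SE 0.13, edgeR p = 0.0737), and passed without mouse 1, 4, 12, 25 or 28, with values between -0.32 and -0.28. Pcp4 was the only member above 0, at 0.06 (SE 0.045, edgeR p = 0.186).

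Within KO mice, where 6.05% of all genes passed, Bok (-0.20, edgeR p = 0.0184) and Amigo2 (-0.20, edgeR p = 0.0259) passed the unadjusted test, and without mouse 18 neither did (-0.14, edgeR p = 0.0557, and -0.12, edgeR p = 0.0852). Within WT mice, where 5.66% passed, Pcp4 passed, with females higher by 0.12 (edgeR p = 0.049), or by 0.08 (edgeR p = 0.0496) without mouse 6, and the Bok value was -0.11 (edgeR p = 0.069).

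The 8 genes were next compared with each other across the 30 mice. Of the 28 pairs, 9 correlated at an adjusted p under 0.05 (Pearson's r of log2 CPM, 2-sided permutation test over mice with 100000 resamples, Benjamini-Hochberg over the 28 pairs). Of the 6 pairs within CA2, 3 passed, with a median r of 0.28. Of the 6 pairs within CA3, 4 passed, with a median r of 0.54, and of the 16 pairs between the sets 2 passed, with a median r of 0.15. The study adjusted its own co-expression values for the date of isolation or harvest. The labels do not give that date, so these correlations are not adjusted for it, and its part in them was not tested. Levels given per total of each library are also not fully independent of each other. The share passing among pairs of other genes is not given here, so these counts are not read as particular to the 8 genes.

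In CA2, Rgs14, Amigo2 and Map3k15 rose and fell together. Rgs14 and Map3k15 had the highest r of all pairs, 0.75 (permutation p = 1e-05, the smallest these resamples can give, adjusted p = 0.00028), with a Spearman's rho of 0.72 (adjusted p = 0.00056) and an r of 0.70 without mice 4 and 18. The r was 0.69 in KO and 0.78 in WT mice. Among all genes tested, no gene had a higher r with Map3k15 than Rgs14 had, and Map3k15 ranked 7 for Rgs14.

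Rgs14 and Amigo2 had an r of 0.66 (permutation p = 4e-05, adjusted p = 0.000373), a rho of 0.67 (adjusted p = 0.0014) and an r of 0.68 without mice 4 and 18. The r was 0.85 in KO and 0.52 in WT mice, and 0.69 in KO mice without mouse 18. Amigo2 and Map3k15 had an r of 0.62 (permutation p = 0.00033, adjusted p = 0.00185), a rho of 0.59 (adjusted p = 0.00493) and an r of 0.53 without mice 18 and 21. Their r was 0.57 in KO and 0.63 in WT mice. Mouse 18 lay at the upper end of all 3 genes, and with it left out the 3 pairs kept an r between 0.56 and 0.72. In KO mice without mouse 18 the r was 0.34 for Amigo2 with Map3k15 and 0.53 for Rgs14 with Map3k15.

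Pcp4 did not follow the other CA2 genes. None of its 7 pairs passed, with r between -0.34 (Amigo2, adjusted p = 0.136) and 0.12 (Iyd, adjusted p = 0.721). With Rgs14 its r was -0.05 (permutation p = 0.789; 0.13 without mice 6 and 19), and with Map3k15 -0.14 (permutation p = 0.48). Against its label, the level of Pcp4 therefore did not vary across mice as that of the other 3 CA2 genes did.

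In CA3, Bok, Cpne4 and Iyd rose and fell together. Bok and Cpne4 had an r of 0.73 (permutation p = 4e-05, adjusted p = 0.000373), a rho of 0.57 (adjusted p = 0.00555) and an r of 0.63 without mice 18 and 23, with 0.77 in KO and 0.67 in WT mice. Bok and Iyd had an r of 0.64 (permutation p = 0.00014, adjusted p = 0.00098), a rho of 0.60 (adjusted p = 0.00493) and an r of 0.63 without mice 18 and 23. Iyd and Cpne4 had an r of 0.60 (permutation p = 0.00043, adjusted p = 0.00201), a rho of 0.58 (adjusted p = 0.00493) and an r of 0.58 without mice 18 and 24.

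Both Iyd pairs were closer in KO mice, where the r was 0.92 with Bok and 0.79 with Cpne4, than in WT mice, where it was 0.35 and 0.36. Without mouse 18 the KO values were 0.88 and 0.75. Whether these correlations differ between the genotypes was not tested.

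Grik4 stood partly apart, with 1 of its 7 pairs past the threshold. That pair was Cpne4, with an r of 0.49 (permutation p = 0.00588, adjusted p = 0.0235), a rho of 0.37 (adjusted p = 0.159) and an r of 0.54 without mice 18 and 27. With Bok its r was 0.36 (adjusted p = 0.125) and with Iyd 0.13 (adjusted p = 0.721). Without mouse 18 the r was 0.62 with Cpne4, 0.53 with Bok and 0.24 with Iyd. In the same order it was 0.49, 0.13 and 0.29 in KO mice, and 0.80, 0.54 and 0.74 without mouse 18. In WT mice it was 0.51, 0.51 and -0.01. Females had 0.73, 0.70 and 0.26, and males 0.16, -0.10 and -0.02. These differences were not tested. With the CA2 genes the r of Grik4 lay between -0.03 and 0.04 over all mice.

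**Figure D3:**
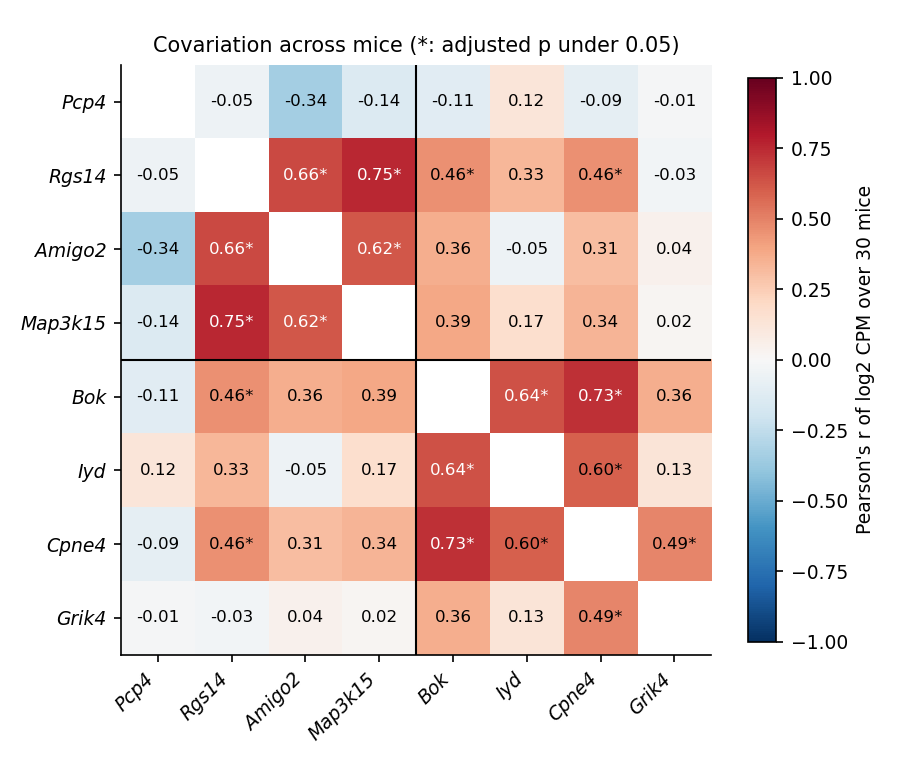
Pearson's r of log2 CPM over 30 mice for each pair of the 8 genes (colour and number), with lines between the CA2 and CA3 genes and a star where the adjusted permutation p is under 0.05. Stars fill the Rgs14, Amigo2 and Map3k15 block and the Bok, Iyd and Cpne4 block, while the Pcp4 row has none.

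Between the sets, Rgs14 correlated with Bok at an r of 0.46 (permutation p = 0.0119, adjusted p = 0.0371) and with Cpne4 at 0.46 (permutation p = 0.0103, adjusted p = 0.0359). The rho was 0.31 (adjusted p = 0.274) and 0.50 (adjusted p = 0.023). Both relations were weaker without mouse 18, and neither then passed after adjustment. With mouse 18 left out the r was 0.27 (adjusted p = 0.341) with Bok and 0.34 (adjusted p = 0.203) with Cpne4, and without mice 4 and 18 it was 0.25 and 0.34. In WT mice, which do not include mouse 18, the r of Rgs14 was 0.38 with Bok and 0.50 with Cpne4. Leaving out mouse 18 kept the 7 pairs within the sets past the threshold and added Bok with Grik4, so that 8 passed.

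The means over the 4 standardized genes of each set had an r of 0.32 with each other, with 0.40 in KO and 0.21 in WT mice. Without mouse 18 it was 0.20 over both genotypes and 0.21 in KO mice. With Pcp4 and Grik4 left out of the means it was 0.39, with 0.57 in KO and 0.18 in WT mice, and without mouse 18 it was 0.21, with 0.29 in KO mice. Whether pairs within the sets and pairs between them differ was not tested.

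**Figure D4:**
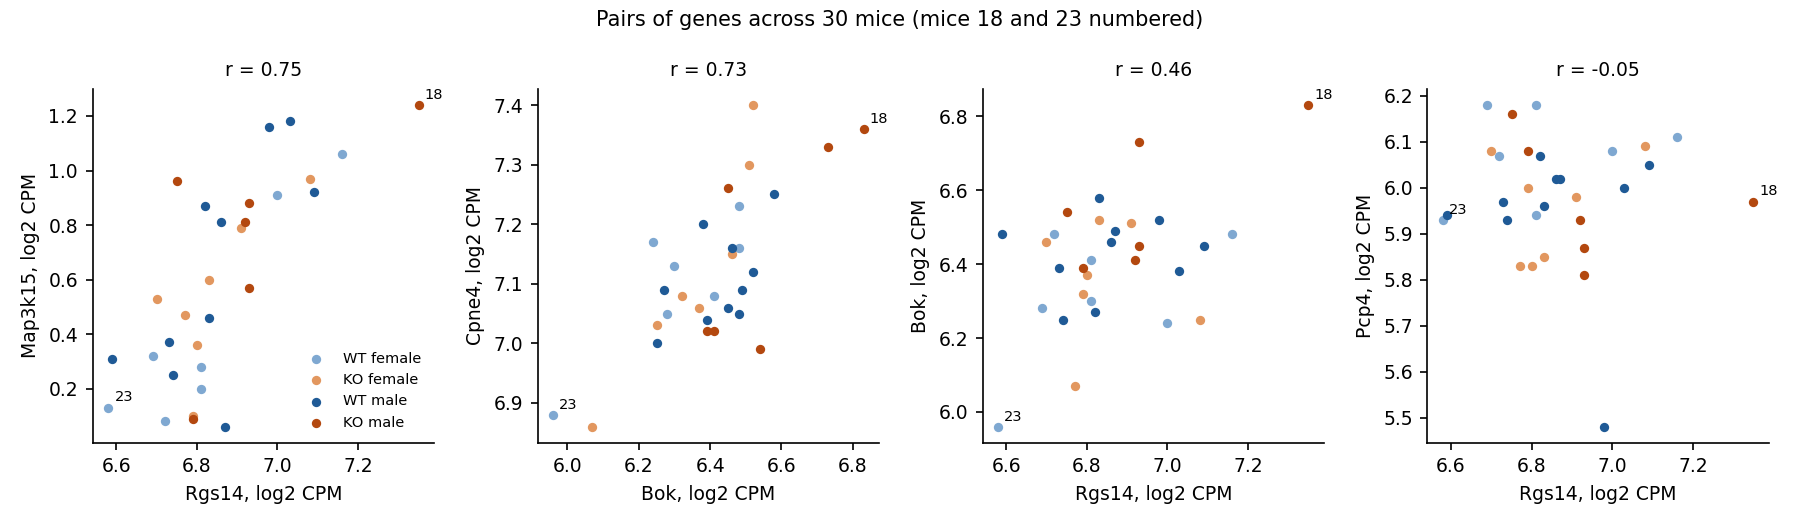
Log2 CPM of 1 gene against another in each of 30 mice, coloured by group, for Rgs14 with Map3k15, Bok with Cpne4, Rgs14 with Bok and Rgs14 with Pcp4. Mice 18 and 23 are numbered. The points of the first pair and of the second rise over the whole range (r = 0.75 and 0.73), the third is weaker without mouse 18 (r = 0.46, and 0.27 without it), and the fourth is flat (r = -0.05).

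Levels of other cell types and of library measures moved with some of these genes, and their part in the correlations was not tested. The r values here are over 30 mice and are given as descriptions. The mean of the 4 CA3 genes had an r of -0.61 with subiculum markers, -0.54 with interneuron markers, -0.43 with neocortex markers and -0.51 with the TMM factor of the library. The mean of the 4 CA2 genes had an r of 0.52 with oligodendrocyte and 0.44 with CA1 pyramidal markers. Without mouse 18 these 6 values were -0.55, -0.52, -0.37, -0.45, 0.41 and 0.34 in the same order. Pcp4 had an r of 0.48 with dentate granule markers, and 0.54 without mouse 6. With the mitochondrial share of the counts its r was 0.55, with 0.15 in KO and 0.68 in WT mice, and without mouse 6 it was -0.05. Depth itself was weakly related, with r between -0.20 and 0.35 of each gene with the log2 total. An index of the level of short minus long genes, by exon length, had an r of 0.37 with Pcp4 (0.44 without mouse 6). That r was 0.74 in KO and 0.14 in WT mice. With the other members the index had an r between -0.19 (Map3k15) and 0.28 (Bok).

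The summed levels of these marker lists overlapped between the genotypes. The subiculum markers ranged from 149 to 228 CPM in TIMP2 KO and from 157 to 226 CPM in WT mice, the interneuron markers from 842 to 1004 and from 826 to 1007 CPM, and the neocortex markers from 257 to 278 and from 247 to 291 CPM. The oligodendrocyte markers ranged from 2348 to 4026 CPM in TIMP2 KO and from 2263 to 3577 CPM in WT mice, and the CA1 markers from 903 to 1149 and from 905 to 1135 CPM. No marker of these 5 lists was at 0 in any mouse, and 0 of 6 subiculum, 0 of 8 interneuron, 0 of 6 oligodendrocyte, 0 of 9 CA1 and 1 of 7 neocortex markers passed an unadjusted p under 0.05 between the genotypes. Of the dentate granule markers, 5 of 10 passed an unadjusted p under 0.05 with lower values in TIMP2 KO, beside 2.56% of all genes in that direction, with a median log2 fold change of -0.12 and 0 after adjustment. Their sum ranged from 702 to 890 CPM in TIMP2 KO and from 752 to 1111 CPM in WT mice. Of the choroid plexus markers 3 of the 4 tested passed with higher values in TIMP2 KO, beside 2.47% of all genes in that direction, and Ttr, which alone passed after adjustment, reached 26400 counts in 1 mouse.

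To place the 8 genes among others of the same fields, 12 further CA2 genes and 10 further CA3 genes were followed, all of which were tested. Of the CA2 genes, 2 of 12 were higher in TIMP2 KO at an unadjusted p under 0.05 and 0 lower, beside 2.47% and 2.56% of all genes, with a median log2 fold change of 0.04. These were Avpr1b, a vasopressin receptor of CA2 (0.52, SE 0.22, edgeR p = 0.0252, adjusted p = 0.952), which had only 3 to 63 counts per mouse, and Ccdc3 (0.18, SE 0.07, edgeR p = 0.0183, adjusted p = 0.945). Of the CA3 genes, 1 of 10 was higher and 0 lower, with a median of 0.04. That gene was Spock1, a testican proteoglycan of the extracellular matrix (256 ± 20.9 CPM in TIMP2 KO and 243 ± 15.1 CPM in WT mice, log2 fold change 0.07, edgeR p = 0.0498, adjusted p = 0.98).

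In each gene family of the members at most 1 gene passed an unadjusted p under 0.05. Over all genes tested, 2.47% passed with higher and 2.56% with lower values in TIMP2 KO. Of the other copines 1 of 8 was higher in TIMP2 KO, Cpne9 (0.18, SE 0.09, edgeR p = 0.0453, adjusted p = 0.98). Of the 2 other kinases of the Map3k15 group Map3k5 was higher (0.07, SE 0.03, edgeR p = 0.0345, adjusted p = 0.96), and of the 2 other AMIGO genes Amigo1 was lower (-0.04, SE 0.02, edgeR p = 0.0439, adjusted p = 0.98). None of 6 kainate receptor and Neto genes, 10 other BCL2 family genes, 2 RGS genes related to Rgs14, and 6 genes of PCP4-like and calmodulin-binding proteins with calmodulin itself passed. After adjustment none of the genes in these lists passed.

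Across the 30 mice, many of the further genes followed their own set. With the mean of the 4 CA3 genes, the 10 further CA3 genes had a median r of 0.54, beside 0.00 over all genes tested, and 8 of 10 lay above the 90th percentile of all genes, 0.29. Homer3, a postsynaptic scaffold protein, had an r of 0.90, the highest of all genes outside the 8, followed among the list by Cdh24 and Nectin3 (both 0.68). Slit2 (-0.15) and Coch (-0.54) did not follow it. With the mean of the 4 CA2 genes, the 12 further CA2 genes had a median r of 0.39, and 7 of 12 lay above the 90th percentile, 0.30. Without mouse 18 that median was 0.29, while that of the further CA3 genes with the CA3 mean was 0.57. The percentiles without mouse 18 are not given here. Avpr1b was highest, at 0.69, and Actn2 (-0.26) and Ntf3 (-0.17) were below 0.

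The sets were not cleanly separated. With the CA3 mean, the list means of the further CA2 and CA3 genes had an r of 0.62 and 0.64. Without mouse 18 these were 0.57 and 0.65. With the CA2 mean they had 0.77 and 0.21. Bok (0.60 against 0.54) and Iyd (0.33 against 0.14) had a higher r with the further CA2 than CA3 genes. Without mouse 18 these were 0.51 against 0.58 and 0.22 against 0.12. Cpne4 (0.60 against 0.64) and Grik4 (0.44 against 0.67) were closer to the further CA3 genes. The further CA2 genes had a median r of 0.30 with the CA3 mean (0.20 without mouse 18), with 6 of 12 above its 90th percentile. Adora1 (0.66 against 0.39) and Ccdc3 (0.60 against 0.40) had a higher r with the CA3 mean than with the CA2 mean. The same held for Fgf2 (0.41 against 0.23), Nr3c2 (0.41 against 0.30), Ntf3 (0.06 against -0.17) and Actn2 (-0.03 against -0.26). The others of the 12 had a higher r with the CA2 mean. The further CA3 genes had a median r of 0.20 with the CA2 mean (0.24 without mouse 18), with 3 of 10 above its 90th percentile. With Pcp4 left out of the CA2 mean that median was 0.35, with 6 of 10 above the percentile, 0.31, beside a median of 0.40 and 7 of 10 with the CA3 mean without Grik4. Without mouse 18 the medians were 0.28 and 0.46. These are descriptions across genes, which are not independent of each other.

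**Figure D5:**
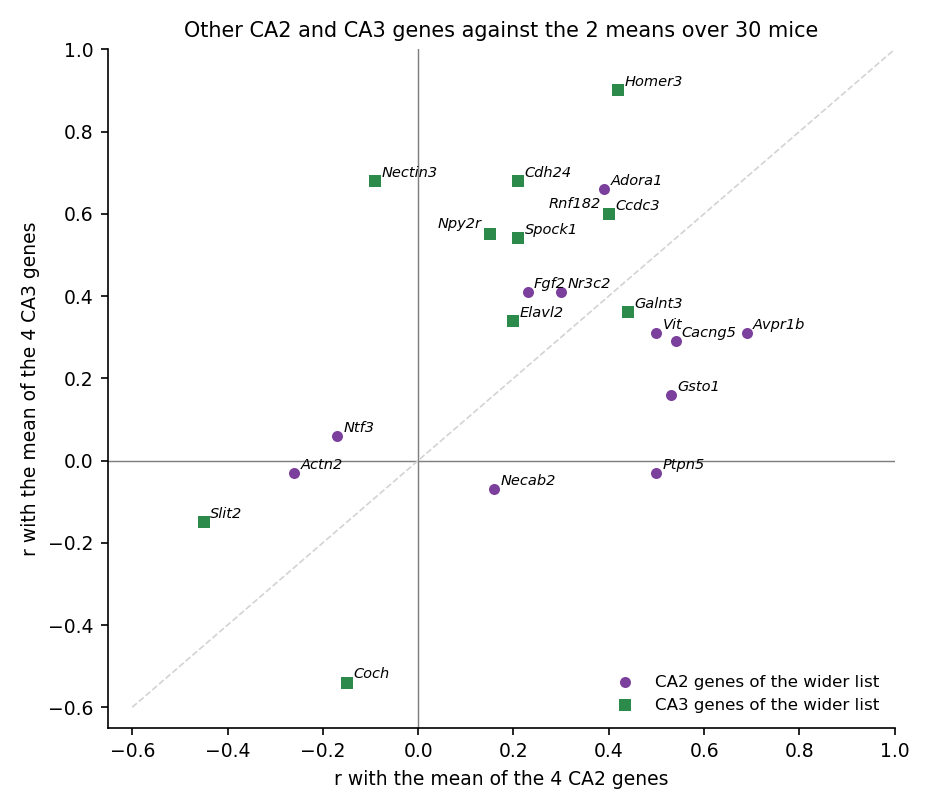
Pearson's r over 30 mice of each further CA2 gene (circles) and CA3 gene (squares) with the mean of the 4 CA2 genes (horizontal axis) and with that of the 4 CA3 genes (vertical axis); the dashed line marks equal values. Most squares lie above the line, with Homer3 highest at 0.90, and the circles lie on both sides, with Avpr1b farthest to the right at 0.69.

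Among all genes outside the 8, those most like the CA3 mean after Homer3 were Chgb (r = 0.85), which encodes a granin of dense-core vesicles, Gpc1 (0.85), a glypican, Slc17a7 (0.79), the vesicular glutamate transporter of cortical and hippocampal excitatory neurons, and Epdr1 (0.78). Each had an r of at least 0.61 within either genotype. Those most like the CA2 mean were Ubac2 (0.82), Arpc5 (0.81), which encodes a subunit of the actin-nucleating Arp2/3 complex, Cotl1 (0.79), Strip2 (0.78) and Rnf115 (0.77).

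For single genes, those nearest by the same measure were Homer3 for Cpne4 (0.84), Sh3gl2, an endophilin of synaptic vesicle endocytosis, for Grik4 (0.80), and Prkcd for Iyd (0.76). Prkcd is also a marker of the thalamus in the lists used here. For the CA2 genes they were Matn2, an extracellular matrix protein, for Rgs14 (0.80), 2900026A02Rik for Amigo2 (0.76), Dse for Map3k15 (0.72) and Rpl31, a ribosomal protein, for Pcp4 (0.78).

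Other near genes were H3f3a (0.77) and Nutf2 (0.75) for Pcp4, Cacna2d3 (0.79) and Plk2 (0.78) for Rgs14, Calhm5 (0.75) and Arrdc4 (0.74) for Amigo2, and Ubac2 (0.68) and Arpc5 (0.67) for Map3k15. For the CA3 genes they were Homer3 (0.83) and Chgb (0.80) for Bok, Sebox and Sept1 (both 0.71) for Iyd, Chgb (0.83) and Lrrc10b (0.82) for Cpne4, and Tmem215 (0.76) and Ywhah (0.75) for Grik4. None of these nearest genes passed an unadjusted p under 0.05 between TIMP2 KO and WT mice. Without mouse 6 the r with Pcp4 was 0.54 for Rpl31, 0.66 for H3f3a and 0.47 for Nutf2. Among these nearest genes, only Homer3 and Chgb were shared between members, being near both Bok and Cpne4. Those of Pcp4 were shared with no other member, and the same held for Rgs14, Amigo2, Map3k15, Iyd and Grik4.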

How the data were processed

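Hippocampal RNA of 30 mice was sequenced from poly(A)-selected, paired-end libraries. The deposited values are raw counts, whole numbers of reads per gene made by the authors with no normalization; per the submitters' processing notes, reads were trimmed with Trimmomatic 0.36, aligned to GRCm38 with STAR 2.5.2b and counted with featureCounts of Subread 1.5.2. All 30 columns matched a mouse, and the columns of any 2 mice differed. Of the 49315 identifiers, 259 had no entry in GENCODE M21.

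From these counts, edgeR 4.0.16 in R 4.3.3 gave TMM factors, a filter on low counts by genotype, log2 CPM with a prior count of 2 and quasi-likelihood tests over 16486 genes, with Benjamini-Hochberg adjustment over all of them. TIMP2 KO and WT mice were compared with both sexes pooled and no covariate, since the study's methods state none for this comparison, sexes with genotype as a covariate, and the interaction separately. The tests were checked on simulated counts. RPKM used the summed exon length of each gene. The named genes are the 8 members, the genes of the 9 wider CA2, CA3 and family lists with an unadjusted p under 0.05, the 3 genes most correlated with each member, the 5 most correlated with each set's mean, and Timp2. A gene that this rule named for Bok is not reported here. Genes named from the wider lists for their r were chosen after their values were seen. The members and all lists were chosen with earlier results of these data known. Alternatives were DESeq2 1.42.0, limma 3.58.1 voom, other scaling and filters, each sex or genotype alone, Spearman's rho and leaving out each mouse. Fits and correlations without mice 6 or 18 were added after seeing the data.

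Depth limits Map3k15 and Iyd most. The study's methods state that controls were littermates, but the labels do not say which mice share a litter or a harvest date. Neither entered a test, so p-values treat the mice as independent. The upstream sequences are from RefSeq (GRCm38.p6).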

Additional observations from a re-analysis of the deposited data

Results flagged for a closer look

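Of 32 groups examined, the 8 genes in each of 4 groups of sex and genotype, 2 held a mouse whose distance to its nearest neighbour was large for the range of its group. Chance gives about 1 in 20 groups, or 1.6 here. Among the WT males, mouse 6 had a Pcp4 level of 5.48 log2 CPM, while the other 9 lay between 5.93 and 6.07. Among the KO males, mouse 18 had an Rgs14 level of 7.35 log2 CPM, while the other 5 lay between 6.75 and 6.93.

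Mouse 6 also had the lowest mitochondrial share of counts, 2.217%, the next being 3.479%. Mouse 18 was near the others in mitochondrial share, at 3.756%. It had the lowest TMM factor of all mice, 0.9757, the next being 0.9793 in mouse 32. With 33964732 counts, it was exceeded in depth only by mouse 11 (41081083). The part of the TMM factor or of depth in the levels of mouse 18 was not tested.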

How the results depend on the processing

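Between TIMP2 KO and WT mice, 0 of the 8 genes passed an unadjusted p under 0.05 under DESeq2, RLE factors, both other filters, sex as a covariate, voom, each mouse left out and mice 6 and 18 left out; 1 passed in females alone, 1 in males alone, 0 in males without mouse 18 and 2 in males without mouse 6. The sign turned for Pcp4 in males (0.02, and 0.02 without mouse 18) and for Iyd in females (-0.10), with voom (-0.02), without mice 6 and 18 (-0.04) and within a range of -0.03 to 0.06 when each mouse was left out. Between the sexes, the 2 genes of the fit with both genotypes became 1 without the genotype covariate, 1 without mice 6 and 18, 0 in KO mice without mouse 18, and 1 to 3 when each mouse was left out. In WT mice, and in WT mice without mouse 6, the count was 1 and the gene was Pcp4, which is neither of the 2. The sign turned in KO mice for Pcp4 (-0.01, also without mouse 18), Grik4 (0.0077) and, without mouse 18, Cpne4 (0.0043), and for the Map3k15 interaction under DESeq2 (-0.00086). Of the 28 pairs, 9 passed with all mice, 1 in WT mice alone and 5 in KO mice alone, where fewer mice entered, and under these and the other alternatives run each of the 9 stayed above 0. The 9 wider CA2, CA3 and family lists, whose sizes are given above, gave 4 to 9 genes under the alternatives. The main fit gave 6, where 5.03% of all genes tested passed an unadjusted p under 0.05. For most alternatives that share is not given here, so the counts are not read as more than background. The causes of the changes between alternatives, the smaller number of mice among them, were not tested.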
